A study of Homo sapiens with 8 samples.

Results

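LMNB1 and 9 other genes of the nuclear lamina are described here. These 10 genes were taken by symbol from the normalized table of the CML experiment, which held 17649 genes after rows of the same symbol were averaged. All 10 genes had a row of their own, and each was measured in all libraries. The set was chosen by earlier results of these CPM values in the same comparison, so the differences between control and CML-exposed cells are given below as a description, with their standard errors and without a p-value.

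The nuclear lamina is a meshwork of intermediate filament proteins that lines the inner nuclear membrane. The A-type lamins A and C are spliced from LMNA, and the B-type lamins are encoded by LMNB1 and LMNB2. Inner membrane proteins (LBR, the LAP2 proteins of TMPO, emerin and LEMD3), the chromatin-binding protein BANF1 and the SUN proteins tie the lamina to chromatin and to the cytoskeleton. The lamina is taken apart and rebuilt at every mitosis, and a fall in lamin B1 is widely used as a sign of senescence.

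The transcriptome was profiled by RNA-Seq in 4 control and 4 exposed cultures, the latter given 1 μM carboxymethyllysine (CML) for 48 hours. CML is an advanced glycation end product, and the comparison asked how it alters the transcriptome of breast cancer cells. All cultures were of MDA-MB-231, an established ER-negative human breast cancer cell line with mesenchymal features, grown in low glucose medium, and the controls received PBS. The labels, which name the exposed samples NCML, number the replicates without saying whether they were grown apart, so p-values measure the spread between these samples, which may be technical. The line's markers matched the label, with VIM between 4014 and 4243 CPM (reads of a gene scaled to the size of the library) in every library, CDH1 at no more than 0.954 CPM and the leukocyte gene PTPRC at no more than 0.650 CPM.

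Each library held between 16161722 and 18954631 estimated reads. In both groups, the values of the library numbered 4 fell with the GC content of the gene. Across 12978 genes of at least 1 CPM, the Spearman correlation of GC content with the distance from the other 3 libraries of the group was −0.59 for control replicate 4 and −0.53 for CML replicate 4. This correlation was not computed for the other libraries, so whether the trend was particular to those numbered 4 was not tested. The fold changes of LMNB1, LMNB2, LMNA and TMPO and the lamin ratios are given below with and without both libraries numbered 4. Over all genes, limma gave 0 genes with a Benjamini-Hochberg adjusted p under 0.05, although 1352 had an unadjusted p under 0.05. At the more lenient FDR of 0.3, which is used below, 158 genes or 0.895% of those tested passed. Of them 119 were higher and 39 lower with CML, a split that was 46 to 27 after centring of the libraries and 90 to 54 after quantile normalization.

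LMNB1 and TMPO were the members whose control and CML libraries did not overlap, and both were higher with CML. LMNB1 was 21.3% higher and TMPO 12.8% higher in mean CPM, whereas LMNA differed by 0.850% and LEMD3 by 0.164%. For LMNB2 and LBR the mean was 10.8% and 6.37% higher, with overlap between the groups. These 2 members of 10 passed the FDR of 0.3, beside 0.895% of all genes and 1.31% of the genes with at least 20 CPM on average, and they passed as well with the replicate number as a block, beside 1.07% of all genes. Groups without overlap and higher with CML were found for 2.5% of all genes and 3.74% of those with at least 20 CPM. No inference is drawn from either count, because the same comparison was known when the genes were chosen.

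**Figure D1:**
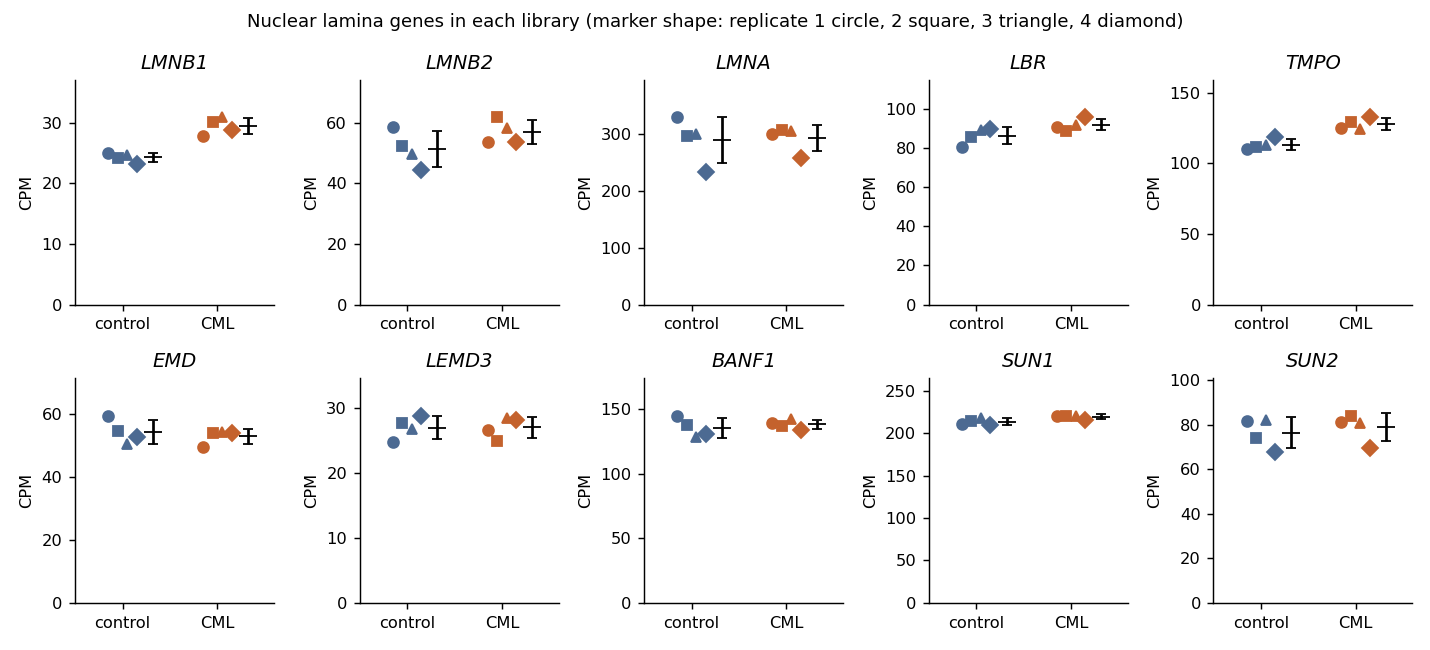
CPM of the 10 nuclear lamina genes in the 4 control libraries (blue) and the 4 CML libraries (orange), with axes that start at 0 and marker shapes for the replicate number, beside the mean and SD (n = 4) in black. LMNB1 and TMPO are the panels in which all CML libraries lie above all control libraries, and LMNA, LMNB2 and SUN2 have a low replicate 4 in both groups.

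LMNB1 (ENSG00000113368.12), on chromosome 5 of GRCh38 from 126776623 to 126837020 on the plus strand, encodes lamin B1. Its level was 25.04, 24.2, 24.6 and 23.2 CPM in control replicates 1 to 4 and 27.8, 30.2, 30.9 and 28.8 CPM in CML replicates 1 to 4. Every CML library lay above every control library, and the lowest CML library was replicate 1. The means were 24.3 ± 0.790 CPM (SD, n = 4) and 29.4 ± 1.37 CPM (SD, n = 4), and the log2 fold change was 0.27 ± 0.040 (SE). LMNB1 was covered by 407 to 564 reads per library, for which counting error alone gives a coefficient of variation of 4.68%. The spread between control libraries was 3.26% and that between CML libraries 4.64%, so the replicates differed by no more than counting error gives. The SE of 0.040 may therefore be too small. The log2 fold change was 0.26 ± 0.045 (SE) without both libraries numbered 4. It was 0.27 ± 0.055 (SE) once the trend with GC content and length was taken out. In the fit of genes averaging at least 1 CPM it was 0.27 ± 0.058 (SE). It ranged from 0.24 to 0.29 over 17 alternative settings, in 14 of which LMNB1 stayed under the FDR of 0.3. The exceptions were the fits without control replicate 2 (0.27), without CML replicate 2 (0.26) and without CML replicate 3 (0.24).

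TMPO (ENSG00000120802.13), on chromosome 12 from 98515573 to 98550351 on the plus strand, encodes the LAP2 proteins, of which the membrane-bound forms bind B-type lamins and LAP2α binds A-type lamins in the nuclear interior. The isoforms cannot be separated in values per gene. TMPO was measured at 110, 111, 113 and 119 CPM in the control libraries and at 125, 129, 124 and 133 CPM in the CML libraries, in the order of the replicates. The groups did not overlap, and within each of them replicate 4 was the highest library. The means were 113 ± 3.81 CPM and 128 ± 4.00 CPM (SD, n = 4 each), and the log2 fold change was 0.17 ± 0.031 (SE). It was 0.18 without both libraries numbered 4 and 0.16 after removal of the trend with GC content and length. TMPO passed the FDR of 0.3 in 9 of the 17 alternative settings. It no longer passed after median centring (0.15) or when any single library other than control replicate 4 was left out, with fold changes between 0.15 and 0.19 in those 7 fits.

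The antisense gene TMPO-AS1 overlaps the start of TMPO on the minus strand and had 0.889 ± 0.237 CPM in control and 0.515 ± 0.154 CPM in CML-exposed cells (SD, n = 4 each), with a log2 fold change of −0.31 on the log2(CPM + 1) scale (adjusted p = 0.553 from limma). Whether the counting used strand is not given in the sources used here.

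The 250 bases before the RefSeq start of the 2 genes without overlap and of LMNA, the lamin gene with the smallest difference, are shown so that their promoters can be compared. Capitals mark the words CCAAT (the box bound by NF-Y), TTTGAA (the cell cycle homology element) and TTTCCCGC, TTTGGCGC, TTTCGCGC or TTTGCCGC (E2F sites), searched on both strands. The sequences are RefSeq's for GRCh38.p14 and are written 5′ to 3′ on the strand of the gene.
LMNB1, chr5:126776373-126776622, plus strand: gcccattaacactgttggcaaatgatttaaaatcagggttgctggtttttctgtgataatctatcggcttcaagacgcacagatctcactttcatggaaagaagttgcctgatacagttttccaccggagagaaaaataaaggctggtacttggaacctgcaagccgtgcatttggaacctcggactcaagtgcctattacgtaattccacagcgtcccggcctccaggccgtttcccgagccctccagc
TMPO, chr12:98515323-98515572, plus strand: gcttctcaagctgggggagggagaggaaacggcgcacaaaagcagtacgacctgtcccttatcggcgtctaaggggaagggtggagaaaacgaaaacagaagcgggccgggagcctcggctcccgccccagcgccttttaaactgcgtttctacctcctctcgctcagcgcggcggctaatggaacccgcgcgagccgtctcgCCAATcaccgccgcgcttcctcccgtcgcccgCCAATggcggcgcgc
LMNA, chr1:156082323-156082572, plus strand: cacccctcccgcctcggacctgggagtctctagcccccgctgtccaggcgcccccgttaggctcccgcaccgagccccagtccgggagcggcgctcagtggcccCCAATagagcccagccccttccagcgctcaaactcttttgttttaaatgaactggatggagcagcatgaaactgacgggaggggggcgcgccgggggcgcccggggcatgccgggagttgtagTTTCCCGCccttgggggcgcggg

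The LMNB1 window held 0 of the searched words. TMPO had 2 CCAAT words, whose first bases lie 47 and 15 bases before the start, and LMNA had 1 CCAAT word 146 bases and 1 E2F word 23 bases before it. A promoter was found for 9 of the 10 members. Of these, 5 held CCAAT, 2 held TTTGAA and 2 held an E2F word, whereas 34.7%, 8.59% and 4.28% of the 11867 promoters of genes in the table did so. The marked words in the 9 windows did not overlap each other. The RefSeq start is the outermost start of the gene and need not be the one used in these cells, and a match is no evidence of binding.

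LMNB2 (ENSG00000176619.13), which encodes lamin B2, lies on chromosome 19 from 2428166 to 2456959 on the minus strand. It was measured at 58.7, 52.3, 49.8 and 44.5 CPM in the control libraries and at 53.8, 61.8, 58.1 and 53.6 CPM in the CML libraries. The groups overlapped because control replicate 1 lay above CML replicates 1, 3 and 4. The means were 51.3 ± 5.88 CPM and 56.8 ± 3.90 CPM (SD, n = 4 each), and the log2 fold change was 0.15 ± 0.088 (SE). Control libraries differed by a coefficient of variation of 11.5%, against 3.29% from counting error alone. After removal of the trend with GC content and length the fold change was 0.16 ± 0.049 (SE), and LMNB2 was then under the FDR of 0.3, a threshold that 7.88% of 12978 genes passed in that fit. Without both libraries numbered 4 it was 0.11 ± 0.081 (SE).

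LMNA (ENSG00000160789.20) lies on chromosome 1 from 156082573 to 156140081 on the plus strand, and lamins A and C are not separated in these values. Its level was 330, 297, 302 and 234 CPM in the control libraries and 300.3, 308, 306 and 259 CPM in the CML libraries. In both groups replicate 4 was the lowest library, and the range of the CML libraries lay within that of the control libraries. The log2 fold change was 0.02 ± 0.113 (SE), and −0.02 ± 0.045 (SE) without both libraries numbered 4. LMNA had the largest spread of the members in the control libraries, with a coefficient of variation of 13.98% at a counting error of 1.42%.

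The ratio of LMNA to LMNB1 reads was 13.2, 12.3, 12.3 and 10.1 in control replicates 1 to 4 and 10.8, 10.2, 9.92 and 8.98 in CML replicates 1 to 4. The CML libraries had the lower mean, and the groups overlapped through control replicate 4, which lay below 2 of the CML libraries. On the log2 scale the ratio was 3.57 ± 0.166 in control and 3.31 ± 0.111 in CML-exposed cells (SD, n = 4 each), a difference of −0.26. Leaving out both libraries numbered 4 was chosen after the data were seen, and it removes the control library through which the groups overlapped. The log2 ratio then lay between 3.62 and 3.72 in control and between 3.31 and 3.43 in CML-exposed cells, with no overlap and a difference of −0.29. Per kilobase of transcript, LMNB1 made up 7.65% ± 0.804 of the 3 lamin genes' signal in control and 8.90% ± 0.578 in CML-exposed cells, while LMNA made up 82.4% ± 1.14 and 80.4% ± 1.06 (SD, n = 4 each). These shares overlapped between the groups through control replicate 4 as well. Without both libraries numbered 4, LMNB1 made up 6.92% to 7.46% in control and 8.33% to 8.93% in CML-exposed cells, and LMNA 82.6% to 83.1% and 80.3% to 81.6%, with no overlap for either gene. The ratios and shares include the difference of LMNB1, which was known when the genes were chosen, and are a description only.

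LBR (ENSG00000143815.15), on chromosome 1 from 225401502 to 225428821 on the minus strand, encodes the lamin B receptor, which binds B-type lamins and heterochromatin protein 1 and has a sterol reductase domain. It was measured at 80.7, 85.4, 89.2 and 89.9 CPM in the control libraries and at 90.9, 88.9, 91.7 and 95.7 CPM in the CML libraries. Of the CML libraries, replicate 2 alone lay below the highest control libraries, replicates 3 and 4. The log2 fold change was 0.09 ± 0.039 (SE), and it ranged from 0.06 to 0.11 over the alternative settings without passing the FDR of 0.3 in any of them.

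EMD, LEMD3 and BANF1 share a function, since emerin and LEMD3 hold a LEM domain, as LAP2 does, and this domain binds the DNA-bridging protein encoded by BANF1. EMD (chromosome X, 154379295 to 154381523, plus strand) ranged from 50.4 to 59.4 CPM in control and from 49.3 to 54.4 CPM in CML libraries, a log2 fold change of −0.03 ± 0.056 (SE). It was the member with a lower mean in CML-exposed cells. LEMD3 (chromosome 12, 65169583 to 65248355, plus strand), whose product also restrains SMAD signaling, ranged from 24.7 to 28.8 CPM and from 24.8 to 28.4 CPM, with a log2 fold change of 0.00 ± 0.060 (SE). BANF1 (chromosome 11, 66002503 to 66004149, plus strand) ranged from 128 to 145 CPM and from 134 to 142 CPM, with a log2 fold change of 0.03 ± 0.041 (SE). For all 3 genes the groups overlapped, and the difference was smaller than its standard error.

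SUN1 and SUN2 encode the inner membrane partners of the nesprins, with which they form the LINC complex across the nuclear envelope. SUN1 (chromosome 7, 815557 to 874934) was measured at 211, 214, 218 and 210 CPM in control and at 221, 220, 221 and 215 CPM in CML libraries. It had the tightest replicates of the 10 genes, with a coefficient of variation of 1.77% in control libraries, and CML replicate 4 alone lay within the control range. Its log2 fold change was 0.04 ± 0.016 (SE). The reads of SUN1 were whole numbers, within 0.1, in 6 of the 8 libraries, whereas those of the other members were whole in all 8. SUN2 (chromosome 22, 38734734 to 38755998, minus strand) ranged from 67.6 to 82.0 CPM in control and from 69.7 to 84.2 CPM in CML libraries, a log2 fold change of 0.05 ± 0.082 (SE). GTPBP1, on the opposite strand, overlaps SUN2 and had 54.9 ± 2.81 CPM in control and 54.8 ± 3.06 CPM in CML-exposed cells (SD, n = 4 each).

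**Figure D2:**
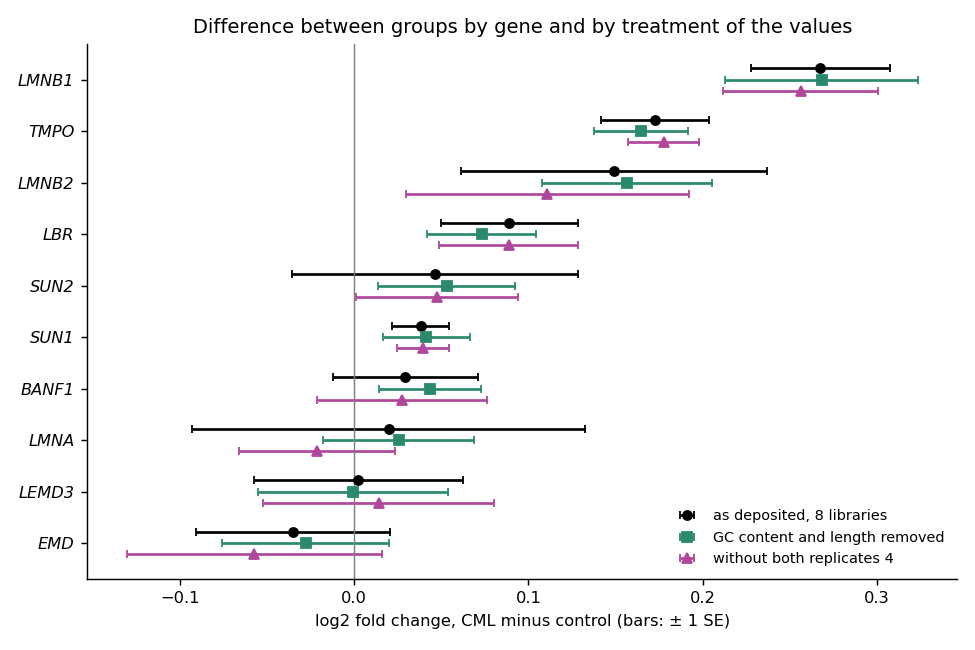
Log2 fold change (CML minus control) of the 10 genes with bars of 1 SE, for the deposited values of all 8 libraries (black circles), once the trend with GC content and length was taken out (green squares) and without both libraries numbered 4 (purple triangles). LMNB1 lies between 0.26 and 0.27 and TMPO between 0.16 and 0.18 in all 3 versions, whereas LMNA changes from 0.02 to −0.02 without the libraries numbered 4.

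Of the 10 genes 9 had a log2 fold change above 0, as did 64.6% of the 7571 genes averaging 20 CPM or more. Their median was 0.04, compared with 0.01 over all genes and 0.02 over those 7571 genes. The count above 0 depended on the scaling of the libraries. LEMD3 was also below 0 after median centring (−0.02), and LMNA and LEMD3 were after quantile normalization (−0.01 each).

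The members differed widely in level. Per kilobase of the canonical transcript, BANF1 was highest in control cells with 185 ± 10.4 CPM per kb, followed by LMNA with 91.5 ± 12.8, SUN1 with 53.2 ± 0.943 and EMD with 42.4 ± 3.00 (SD, n = 4 each). TMPO had 27.4 ± 0.921, LBR 23.0 ± 1.12 and SUN2 19.3 ± 1.74 CPM per kb (SD, n = 4 each). At the low end of the order lay LMNB2 with 11.1 ± 1.27, LMNB1 with 8.40 ± 0.273 and LEMD3 with 5.64 ± 0.362 CPM per kb (SD, n = 4 each). No neighbours in this order overlapped in the control libraries. With the joint length of all exons of a gene, EMD lay above SUN1 and LBR above TMPO, LMNA and EMD overlapped and so did LMNB2 and SUN2, while BANF1 stayed highest and LMNB1 and LEMD3 stayed lowest. LMNB1 had 10.2 ± 0.473 CPM per kb in CML-exposed cells (SD, n = 4), which remained below the 11.6 CPM per kb of the lowest CML library for LMNB2.

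**Figure D3:**
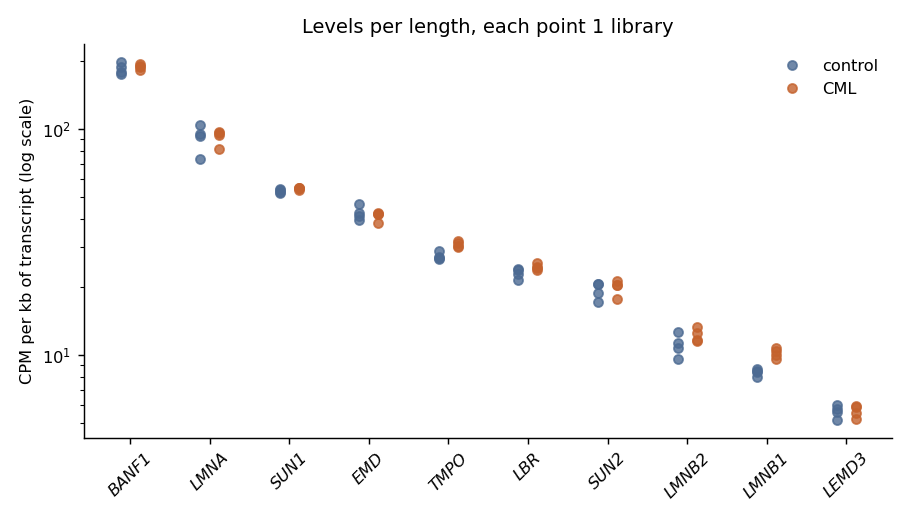
CPM per kilobase of the canonical transcript on a log axis, with 1 point for each control (blue) and CML (orange) library and the genes in the order of their control level. BANF1 is highest at 185 CPM per kb in control cells, and LMNB1 (8.40) and LEMD3 (5.64) are lowest.

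Within the groups, the lamina genes separated by GC content in the libraries numbered 4. LMNA, LMNB2 and SUN2, with transcripts of 61.1% to 62.1% GC, were lowest in replicate 4 of both groups, by 0.40, 0.26 and 0.23 on the log2 scale in control replicate 4 and by 0.24, 0.11 and 0.23 in CML replicate 4, relative to the mean of replicates 1 to 3. LBR and TMPO, with 38.0% and 40.9% GC, were highest there, by 0.07 to 0.09. LMNB1, with 47.8% GC, was 0.08 lower in control replicate 4 and 0.04 lower in CML replicate 4. Across the 10 genes, which share these libraries, GC content and this distance had a Spearman correlation of −0.83 in control replicate 4 and −0.89 in CML replicate 4. Once the trend with GC content and length was taken out, the SD of LMNA between control libraries was 0.125 on the log2 scale, compared with 0.212 before, and that of TMPO was 0.017, compared with 0.047. The SD between control libraries was larger after this removal for LMNB1, at 0.073 compared with 0.045, and for SUN1, at 0.039 compared with 0.025.

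**Figure D4:**
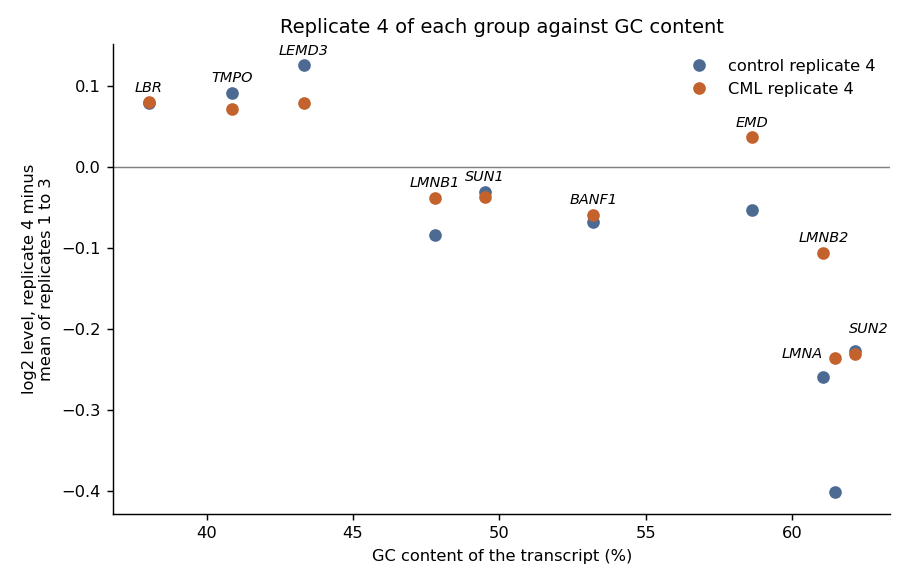
Distance of replicate 4 from the mean of replicates 1 to 3 of its group, on the log2 scale, against the GC content of the transcript, with 1 point per gene for control (blue) and CML (orange). LBR, TMPO and LEMD3 lie above 0 in both groups, and LMNA, LMNB2 and SUN2 lie lowest, down to −0.40 for LMNA in control replicate 4.

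The genes most like LMNB1 were sought in the deviations from the group means, which hold nothing of the difference between control and CML-exposed cells. Among 10768 genes of at least 5 CPM, the highest Pearson correlations over the 8 libraries were those of AC016629.3 (0.97), UBAP1 (0.96), FHOD1 (0.95), C16orf74 (0.95) and GMPPA (0.95), and the lowest those of STK33 (−0.99), FAM45A (−0.99) and CSNK1G1 (−0.98). After removal of the trend with GC content and length, UBAP1, a subunit of the ESCRT-I complex, had 0.95 and AC016629.3 had 0.92, while the formin gene FHOD1, C16orf74 and GMPPA had 0.71 to 0.76. STK33 then had −0.86 and CSNK1G1 −0.75, whereas FAM45A had −0.26. Without both libraries numbered 4, the 5 highest lay between 0.95 and 0.98 and the 3 lowest between −0.99 and −0.98 over 6 libraries. None of these 8 genes passed the FDR of 0.3 between the groups. With so few libraries, 5% of all genes had a correlation above 0.71, so the ranking is a description only. The replicates of LMNB1 differed by no more than counting error gives, and AC016629.3, C16orf74 and STK33 averaged 5.69, 5.59 and 7.26 CPM. Whether the ranking holds more than counting error was not tested. The 6 libraries are part of the same 8, so their values are no independent check. Among the members, LMNB2 ranked 269 in likeness to LMNB1 (0.77), LMNA ranked 818 (0.66) and TMPO ranked 8428 (−0.47).

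Proliferation markers moved with LMNB1 and TMPO between the groups. All 10 markers of a list had a log2 fold change above 0, with a median of 0.24, and 5 of them rose at the FDR of 0.3, which 0.674% of all genes passed in this direction. MKI67, the gene of the antigen Ki-67, rose from 124 ± 5.60 to 152 ± 3.21 CPM (SD, n = 4 each, adjusted p = 0.0856 from limma), and TOP2A, which encodes a topoisomerase of dividing cells, from 151 ± 10.5 to 179 ± 7.13 CPM (SD, n = 4 each, adjusted p = 0.293 from limma). CCNB1, CCNA2 and TYMS were the other markers that passed. The summed level of the list was 511 to 570 CPM in control libraries and 634 to 664 CPM in CML libraries. The direction of this list was already known from earlier results of these data and is not independent evidence. In values from bulk RNA, a larger share of cells in a phase of the cycle and more RNA per cell cannot be told apart, and the part of these markers in the lamina values was not tested. Within the groups, the deviations of LMNB1 correlated with those of the 10 markers between −0.65 and 0.54, with a median of −0.46, and those of TMPO between −0.68 and 0.91, with a median of 0.60. After removal of the trend with GC content and length the medians were −0.21 for LMNB1 and 0.14 for TMPO, and without both libraries numbered 4 they were −0.08 and 0.46 over 6 libraries. The replicates of LMNB1 differed by no more than counting error gives, so no conclusion is drawn from its correlations within the groups. The number of markers that passed was 2 without CML replicate 2, 3 without control replicate 2 or CML replicate 3, 8 without control replicate 4 and 10 after removal of the trend with GC content and length. Without control replicate 4 and after that removal, 3.04% and 5.88% of the genes tested passed in the higher direction. Of 17649 genes, 16 passed higher without CML replicate 2, 30 without control replicate 2 and 35 without CML replicate 3.

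Other envelope genes were compared in lists compiled by function, with adjustment over all genes. The list of inner nuclear membrane and LINC genes held 18 further genes. It also includes partners of these proteins, such as the heterochromatin protein 1 genes CBX1, CBX3 and CBX5. Of the 18, 0 passed the FDR of 0.3 in limma, although 2 had an unadjusted p under 0.05, and the median log2 fold change was 0.04. SYNE2, which encodes the giant nesprin that SUN proteins hold at the nucleus, had 21.2 ± 1.10 CPM in control and 24.9 ± 1.44 CPM in CML-exposed cells without overlap (SD, n = 4 each, log2 fold change 0.22, adjusted p = 0.364 from limma). TMEM43, the gene of the envelope protein LUMA, differed by 0.05 on the log2 scale (adjusted p = 0.622, limma), and ANKLE1, a LEM-domain nuclease at 1.26 to 1.75 CPM in the group means, had −0.27 (adjusted p = 0.706 from limma). SYNE2 passed without control replicate 4, as did 3.04% of all genes in the higher direction. Groups without overlap and higher with CML were found for 2.5% of all genes.

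Of the 5 enzymes that farnesylate, cleave and methylate the tails of the lamins, 0 passed the FDR of 0.3 in limma, and 1 had an unadjusted p under 0.05. FNTB, the β subunit of farnesyltransferase, differed by 0.11 on the log2 scale (adjusted p = 0.623, limma). RCE1, which removes the end of the farnesylated tail, had −0.03, and ZMPSTE24, the protease that matures prelamin A, had 0.02. The median of the list was 0.00.

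Among 23 genes of envelope breakdown and reassembly found in the table, 2 rose at the FDR of 0.3 and 0 fell, where 0.674% of all genes rose and 0.221% fell. CCNB1, the cyclin of the mitotic kinase that phosphorylates lamins, rose from 67.6 ± 2.83 to 82.0 ± 2.47 CPM (SD, n = 4 each, log2 fold change 0.28, adjusted p = 0.0889 from limma) and is also one of the proliferation markers. CDCA2, whose product directs protein phosphatase 1 to chromosomes at the end of mitosis, rose from 7.15 ± 0.252 to 9.29 ± 0.598 CPM (SD, n = 4 each, log2 fold change 0.34, adjusted p = 0.173 from limma). PLK1, a mitotic kinase, had a log2 fold change of 0.19 without overlap of the groups (adjusted p = 0.478 from limma). AKAP8, which encodes an anchoring protein for protein kinase A and was picked out after its values were seen, had 44.9 ± 3.26 CPM in control and 40.1 ± 1.57 CPM in CML-exposed cells without overlap (SD, n = 4 each, log2 fold change −0.16, adjusted p = 0.544 from limma). In the list, 4 genes had groups without overlap and higher with CML, and 1, AKAP8, had them lower. Over all genes the shares were 2.5% higher and 1.27% lower. The median of the list was 0.04. The number that passed was 1 without control replicate 1 or 2 or without CML replicate 1 or 3, and 0 without CML replicate 2. It was 3, all higher, without CML replicate 4, where 77 of 17649 genes passed in that direction. It was 5, all higher, without control replicate 4, where 3.04% of all genes passed in that direction. After removal of the trend with GC content and length 4 passed higher and AKAP8 lower. Of the 12978 genes in that fit, 763 or 5.88% passed higher and 260 lower.

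Of 31 nuclear pore genes, whose products form the channels anchored in the lamina, 28 had a log2 fold change above 0, as did 64.6% of the genes averaging 20 CPM or more, with a median of 0.05. At the FDR of 0.3 1 of them rose, beside 0.674% of all genes. This was NUP205, a scaffold subunit of the inner ring, with 62.5 ± 0.998 CPM in control and 68.2 ± 2.45 CPM in CML-exposed cells (SD, n = 4 each, log2 fold change 0.13, adjusted p = 0.294 from limma). NUP37 differed by 0.16 on the log2 scale (adjusted p = 0.399, limma) and NUP58 by 0.13 (adjusted p = 0.602, limma). The number that passed was 5 without control replicate 4, beside 3.04% of all genes, 2 without both libraries numbered 4, beside 1.39%, and 0 when any other single library was left out, so the call of NUP205 was not kept in those fits.

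**Figure D5:**
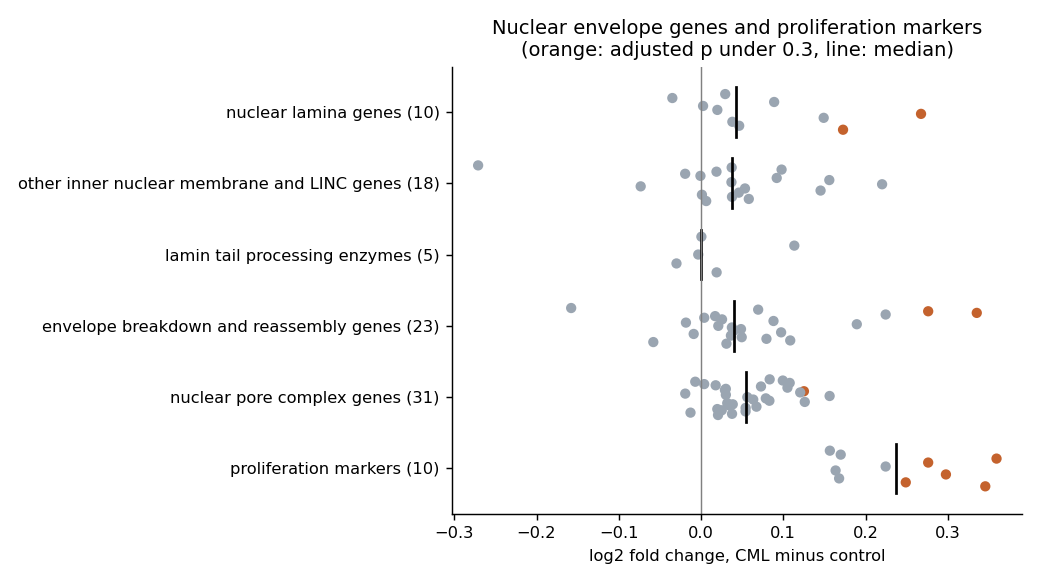
Log2 fold change (CML minus control) of each gene in the lamina set, in 4 further lists of envelope genes and in the proliferation markers, with the number of genes in brackets, the median as a black line and genes with an adjusted p under 0.3 in orange. The proliferation markers have a median of 0.24, and the envelope lists have medians between 0.00 and 0.05.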

How the data were processed

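The authors deposited CPM values, which are read counts scaled to library size, for 4 control and 4 CML libraries. The submitters' processing notes name edgeR and the build hg38, and for the tumors the paper describes CPM scaled by TMM factors. The aligner, counting tool and annotation of this experiment are not given in the sources used here.

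Rows of the same symbol were averaged (17681 rows, 17649 genes) and log2(CPM + 1) was tested between the groups in limma 3.58.1 (R 4.3.3) with trended variance, without covariates and with Benjamini-Hochberg adjustment over all genes, after a test on simulated data. The CPM of 1 read, 0.0535 to 0.0622, gave estimated reads. Between 84.7% and 85.6% of low values were whole within 0.1, so no count test was run. Fold changes are on the log2(CPM + 1) scale, and p-values measure the spread between samples. Lengths and GC content came from GENCODE 44 and coordinates and promoters from RefSeq (GRCh38.p14).

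The members, lists and tests were chosen with earlier results of these data known. Named were all members, the list genes under the FDR of 0.3 or, if fewer than 3, those with the smallest p up to 3, the 5 genes most and 3 least like LMNB1, MKI67 and TOP2A, and genes overlapping a member. Alternatives were another pseudocount, a minimum of 1 CPM, separate rows, median centring, quantile normalization, no trend, a replicate block, each library left out and, chosen after seeing the data, removal of the trend with GC content and length (cubic polynomials per library) and both libraries numbered 4 left out.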

Additional observations from a re-analysis of the deposited data

Results flagged for a closer look

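In 26 groups of 4 libraries (the 10 genes, the ratio of LMNA to LMNB1, the summed proliferation markers and the estimated reads), 4 held a library whose gap to the nearest of the others was large against the range of the group, where chance gives about 1 in 20. LMNA stood at 259 CPM in CML replicate 4, against 300.3 to 308 CPM in CML replicates 1 to 3. SUN1 had 215 CPM in CML replicate 4, whereas the other CML libraries lay between 220 and 221 CPM. EMD stood at 49.3 CPM in CML replicate 1, against 53.9 to 54.4 CPM in CML replicates 2 to 4. Control replicate 4 held 17729472 estimated reads, and the other control libraries held between 16559901 and 16690378.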

How the results depend on the processing

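The log2 fold changes of the 10 lamina genes moved by less than the SD between control replicates under all 17 alternatives, and those of LMNB1, TMPO, LMNB2, LBR, BANF1 and SUN1 stayed above 0. That of SUN1 moved from 0.0381 to 0.0182 with quantile normalization and to 0.0184 after median centring. Both shifts were larger than its SD of 0.0184 between CML replicates. The number of lamina genes under the FDR of 0.3, 2 in the deposited values, was 1 after median centring and 0 to 2 with 1 library left out. Over all genes the number was 73 after median centring, 1023 after removal of the trend with GC content and length, 321 without both libraries numbered 4, and 20 (without CML replicate 2) to 690 (without control replicate 4) with 1 library left out. For the inner membrane and LINC genes it was 1 after removal of that trend and 0 to 1 with 1 library left out. For the breakdown and reassembly genes it was 1 after centring, 5 after removal of the trend (4 higher, 1 lower), 5 without both libraries numbered 4 (all higher), and 0 to 5 with 1 library left out. For the pore genes it was 0 after centring, with no variance trend, with 0.1 as the pseudocount and for genes averaging 1 CPM or more, 7 after removal of the trend, 2 without both libraries numbered 4 and 0 to 5 with 1 library left out. For the proliferation markers it was 10 after removal of the trend and 2 to 8 with 1 library left out. The difference in the log2 ratio of LMNA to LMNB1 lay between −0.34 and −0.21 with 1 library left out and was −0.29 without both libraries numbered 4. The cause of these changes was not tested. Counting error limits LMNB1 and LEMD3 most, at 407 to 564 and 414 to 505 reads.

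The replicate numbers pair no cultures in the labels. Deviations of same-numbered libraries correlated between −0.06 and 0.33, and 2 of the 4 control libraries correlated best with the CML library of their own number. With the replicate number as a block, 189 genes and 2 lamina genes passed the FDR of 0.3. For the lists it was 0 inner membrane and LINC genes, 0 tail enzymes, 2 breakdown and reassembly genes, 1 pore gene and 6 proliferation markers.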

Other observations

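Pairs of lamina genes that moved in opposite directions within the groups did not all do so once the trend with GC content and length was removed. The deviations of LMNA and TMPO from their group means had a Pearson correlation of −0.87 over the 8 libraries in the deposited values and of 0.35 after this removal. For TMPO and SUN2 the values were −0.73 and 0.56. LMNA and SUN1 had 0.56 in the deposited values and 0.87 after removal, and LMNB1 and LMNA had 0.66 and 0.83. TMPO and LEMD3 turned the other way, from 0.35 to −0.93. These are descriptions over libraries of 2 groups, chosen among 45 pairs after their values were seen.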
